A study of Schizosaccharomyces pombe with 18 samples.

Results

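The transcriptome of fission yeast (Schizosaccharomyces pombe) deleted for clr2 was compared with that of wild type in total RNA of 6 cultures, 3 per genotype, out of 18 cultures of 6 genotypes. All rows of the deposited expression table with a value of at least 1 FPKM (fragments counted per unit of transcript length and of library size) in 3 or more of these 6 libraries were taken, which gave 6649 genes of 7018. Wild type is labelled h- (the M mating type) with ade6-210, arg3-D4 and his3-D1. The clr2D strain is also labelled h- and carries clr2D::his7+ with ade6-216, arg3D and his3D. Both genotypes list leu1-32 and ura4-D18. The clr1D strain (clr1D::KanMX4, ade6-210/216?) and the clr3D strain (clr3D::kanMX6, ade6-210), each with 3 libraries, list the same arg3D, his3D, leu1-32 and ura4-D18 as clr2D. They entered the same fit and served to test whether a change differed between deletions. Each genotype is 1 strain, so an effect of the deletion and one of any other difference between the strains, the ade6, arg3 and his3 alleles and the his7+ marker included, cannot be told apart. Cultures of 25 ml were grown in rich medium (YES) at 25 °C, ribosomal RNA was depleted, and a stranded total RNA kit was used.

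Clr2 is a subunit of SHREC, a nuclear complex of fission yeast that is recruited to heterochromatin and shuts off transcription there. Clr3 is its histone deacetylase, Mit1 its chromatin remodeler of the SNF2 family, Chp2 its link to methylated histone H3 through an HP1-type chromodomain, and Clr1 a zinc-finger protein. SHREC is known for silencing at the pericentromeric repeats, the subtelomeres and the silent mating-type cassettes, where reporter genes and non-coding transcripts are expressed when a subunit is lost.

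Depth, recovered from the steps between the deposited values, was 46.54 to 101.85 M reads in wild type and 41.98 to 82.8 M reads in clr2D. Levels below are FPKM divided by a per-library factor of 0.969 to 1.052 (scaled FPKM), given for replicates 1 to 3 or as mean ± SD (n = 3). Log2 fold changes are clr2D minus wild type on the log2(scaled FPKM + 1) scale with their SE, and genes with an adjusted p under 0.05 in limma are said to have changed. Replicates with the same library prefix were kept as a block. The p values rest on the spread between cultures labelled as biological replicates that is left after the block. That spread was estimated over the 12 libraries of wild type, clr2D, clr1D and clr3D. Whether counting used the strand is not given in the sources used here, so reads of overlapping genes and of antisense pairs cannot be told apart. In bulk cultures, more RNA per cell and more cells expressing a gene cannot be told apart either.

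The deleted gene was read first. The clr2 level (chromosome I 4964526 to 4966980, ASM294v2) was 19.8, 19.6 and 20.6 in wild type and 15.6, 14.8 and 15.3 in the libraries labelled clr2D. The groups did not overlap, yet 76.2% of the wild-type level remained (log2 fold change -0.37 ± 0.03, adjusted p = 7.15e-05). In clr1D and clr3D the clr2 level was 27.4 ± 0.714 and 29.8 ± 1.303, above wild type. Which part of clr2 the deletion removes is not given, so the reads that remain cannot be assigned to a part of the gene. The marker gene his7, which encodes an enzyme of histidine synthesis, stood at 144, 148 and 144 in wild type and 331, 352 and 339 in clr2D (2.34-fold; log2 fold change 1.22 ± 0.02, adjusted p = 1.39e-09). Reads of the his7+ marker and of the gene's own locus cannot be told apart. The clr1D and clr3D libraries, which carry other markers, stayed at 148 ± 5.34 and 145 ± 5.99. The other SHREC subunit genes did not pass the test in clr2D: clr1 was 13.1 against 12.9 (wild type first), clr3 36.1 against 36.7, mit1 13.6 against 13.4 and chp2 13.2 against 14.02. Next to clr2, the non-coding RNA SPNCRNA.256 rose from 9.79 ± 1.999 to 14.7 ± 1.09 (log2 fold change 0.56 ± 0.10, adjusted p = 0.00405; 0.0638 in an unblocked fit of these 6 libraries alone), and its level was 16.2 in clr1D and 14.7 in clr3D. The other neighbour, mrps18, did not pass (19.5 against 18.7).

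**Figure D1:**
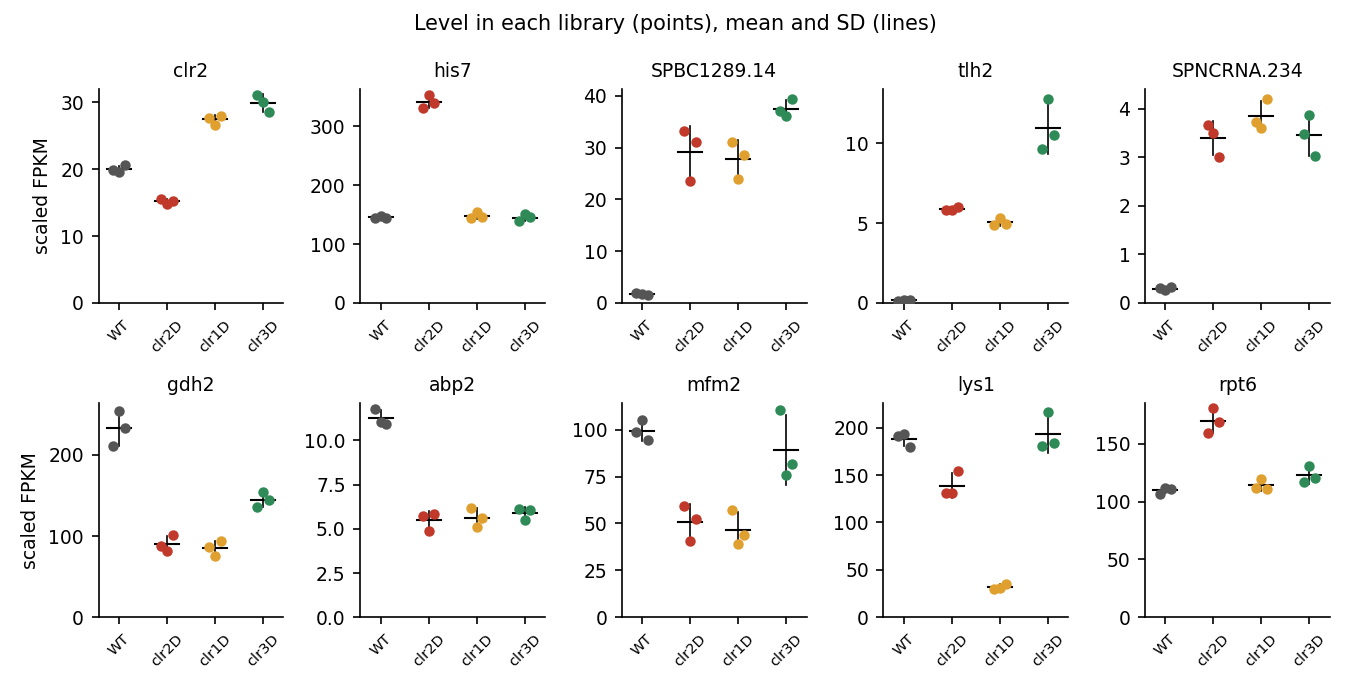
Scaled FPKM of 10 genes in each library (points) with the mean and SD (lines) of the 3 libraries of wild type, clr2D, clr1D and clr3D; each vertical axis starts at 0. The clr2D libraries stand apart from the other 3 genotypes for his7 and rpt6, sit with clr1D for gdh2 and mfm2, and sit with both other deletions for SPBC1289.14, SPNCRNA.234 and abp2.

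Between wild type and clr2D many genes changed by little and few by much. In all, 1398 of the 6649 genes changed (21.0%), 780 higher (11.7%) and 618 lower (9.29%), with a median size of 0.188 on the log2 scale. At least a 2-fold change was seen in 32 rises and 10 falls, and 143 genes changed by 1.5-fold or more. Without the replicate block 552 genes changed, 340 higher and 212 lower. The split depends on the scaling: 55.8% of changed genes were higher after scaling and 68.6% with FPKM as deposited. Without clr2D replicate 1 the count was 849 and without clr2D replicate 2 it was 890. Without wild-type replicate 3 the falls were 381. A gene near 0 in wild type entered the test only if clr2D was high: 13 genes passed the filter on low values only through clr2D and all of them rose, which leaves 767 other rises, 21 of them 2-fold or more. Of the 20 other genes under 1 scaled FPKM in wild type 8 rose and 0 fell, and above 100 scaled FPKM 90 of 1153 rose and 147 fell. The wild-type level is part of the fold change, so these bins are a description.

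**Figure D2:**
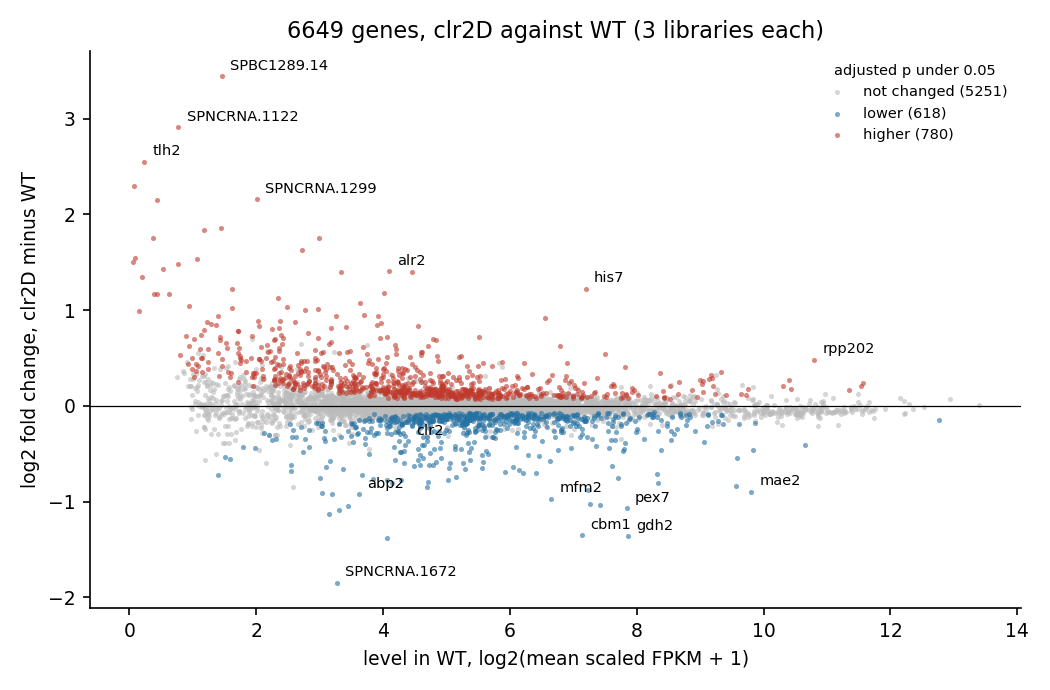
Log2 fold change of clr2D against wild type (vertical axis, log2(scaled FPKM + 1) scale) against the wild-type level (horizontal axis, log2 of mean scaled FPKM + 1) for 6649 genes. Genes called higher (780) reach a log2 fold change of 3.44 and lie to the left for the largest values, while genes called lower (618) reach -1.85 and include strongly expressed genes such as mae2 and gdh2.

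SPBC1289.14 had the highest log2 fold change with 1 added to the values (chromosome II 4412072 to 4413599); it is annotated as an adducin. Its level was 1.94, 1.68 and 1.64 in wild type and 33.1, 23.6 and 31.02 in clr2D. Every clr2D library lay far above every wild-type library (16.7-fold; log2 fold change 3.44 ± 0.08, adjusted p = 2.74e-09). The 300 bases before its start in the RefSeq annotation of ASM294v3 (chromosome II 4411941 to 4412240, plus strand) are shown because they belong to that gene; starts in that annotation differ from those in the deposited table. By these coordinates the window runs past the deposited start of 4412072, and the capitals lie inside the deposited row. The capitals mark the letters TGACGT, the core of the cyclic AMP response element that is bound by the stress-activated factor Atf1.
SPBC1289.14: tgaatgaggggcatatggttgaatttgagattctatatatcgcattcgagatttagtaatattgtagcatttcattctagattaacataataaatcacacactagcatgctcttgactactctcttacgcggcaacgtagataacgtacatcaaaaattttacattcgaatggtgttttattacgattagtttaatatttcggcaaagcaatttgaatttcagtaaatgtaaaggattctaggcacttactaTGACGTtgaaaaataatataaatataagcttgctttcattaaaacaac

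Searched on both strands, this core was present in the same window of 303 of the 5016 tested protein-coding genes (6.04%), of 52 of the 511 that rose (10.2%) and of 36 of the 458 that fell (7.86%). The match is a description of the letters and not of binding.

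The 2 next rises on this scale were those of a non-coding RNA and of a helicase gene. SPNCRNA.1122 (chromosome III 258116 to 258797) went from 1.14, 0.390 and 0.595 to 12.6, 11.6 and 10.8 (16.5-fold; log2 fold change 2.91 ± 0.09, adjusted p = 4.58e-08). The gene tlh2 (chromosome II 4526885 to 4532899), which encodes a RecQ-type DNA helicase of the subtelomere and has a near-identical copy, tlh1, went from 0.149, 0.188 and 0.181 to 5.79, 5.83 and 5.99 (34.01-fold; log2 fold change 2.55 ± 0.07); it passed the filter on low values only through clr2D, so that its values are a description. The copies cannot be told apart with certainty. For weakly expressed genes the log2 fold change depends on the added constant: that of tlh2 was 4.46 with 0.1 added and 1.07 with 5 added, and that of SPBC1289.14 was 3.97 and 2.33. Outside the subtelomeres, SPAPB1A11.02 on chromosome I, annotated as an esterase or lipase, went from 1.28, 0.202 and 0.602 to 4.04, 3.102 and 3.67 (5.18-fold; adjusted p = 9.80e-05). It lies in a run of 6 neighbouring tested genes that all rose (chromosome I 2976370 to 2988911), from mfc1 to mca1, with log2 fold changes of 0.111 to 1.49; 1 of them, SPNCRNA.869, passed the filter only through clr2D.

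Rises were dense at the chromosome ends. Of the 72 tested genes within 50 kb of an outermost row of the table, 48 rose (66.7%, against 11.7% of all genes tested) and 0 fell, with a median log2 fold change of 0.38 (51 higher and 7 lower at an unadjusted p under 0.05 in limma). Setting aside 6 of the 72 that passed the filter only through clr2D, 42 of 66 rose, 10 of them 2-fold or more. From 50 to 100 kb 33 of 147 rose and 16 fell, from 100 to 200 kb 79 of 338 rose and 34 fell, and beyond 400 kb 517 of 5412 rose (9.55%) and 508 fell (9.39%). Rises near the ends were found at low and at higher wild-type levels: at 5 scaled FPKM or more in wild type 28 of 39 genes near an end rose, against 599 of 6043 farther in, and below that level, without the genes that passed the filter only through clr2D, 14 of 27 rose, against 110 of 484. Near the ends quantile normalization gave 46 rises and 7 falls, voom on recovered reads gave 47 and 2, and the fit without the replicate block gave 38 and 0. The listed 115 tested subtelomeric genes, which reach to 100 kb from either end of I and II and leave out chromosome III, had 39 rises and 14 falls, against 29 and 25 with quantile normalization and 19 and 8 without the block. The 39 rises include the 6 genes that passed the filter only through clr2D. With at least 1 FPKM required in all 6 libraries, the list had 25 rises and 13 falls.

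The ends were not alike. Within 50 kb, 11 of 12 tested genes rose at the right end of chromosome I, 9 of 10 at the right end of II, 13 of 16 at the left end of III and 12 of 21 at the right end of III. At the left end of I 3 of 8 rose, each by 2-fold or more, and at the left end of II 0 of 5 rose or fell (median log2 fold change -0.29; 0 higher and 4 lower at an unadjusted p under 0.05 in limma). These counts include genes that passed the filter only through clr2D, which fixed that clr2D lay above wild type. They are SPAC212.06c and SPAC212.10 at the left end of I and SPAC186.08c at the right end of I. At the right end of II they are SPBCPT2R1.07c, SPBCPT2R1.10 and tlh2. At the left end of I only the rise of SPAC212.12 is outside this group. At the left end of I, SPAC212.06c, a DNA helicase-like gene, went from 0.330, 0.523 and 0.189 to 4.54, 5.17 and 5.098 (14.2-fold; log2 fold change 2.15 ± 0.08). The pseudogene SPAC212.10 nearby had 8 reads in all wild-type libraries together, 1 of which had none, and 456 in clr2D, with levels of 4.37, 3.86 and 4.17. At the right end of II the pseudogenes SPBCPT2R1.07c and SPBCPT2R1.10, next to tlh2, had 25 and 5 wild-type reads and 625 and 231 clr2D reads. These 4 genes passed the filter only through clr2D, so that their values are a description. Passing in this way means under 1 FPKM in every wild-type library and at least 1 in every clr2D library.

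At the right end of I, 10 neighbouring tested genes rose together (chromosome I 5542290 to 5569803; log2 fold changes 0.345 to 1.85). Among them pdc102, a pyruvate decarboxylase gene, went from 1.38, 0.851 and 1.07 to 5.06, 4.605 and 5.47 (4.58-fold; log2 fold change 1.53 ± 0.08, adjusted p = 9.42e-07). SPAC186.07c, annotated as a hydroxyacid dehydrogenase, rose from 2.096, 0.488 and 1.16 to 7.29, 5.56 and 7.38 (5.401-fold; adjusted p = 2.09e-05), and the RNA prl61 that overlaps it rose 4.900-fold. The neighbour SPAC186.08c, annotated as a lactate dehydrogenase and chosen after its values were seen, went from 0.309, 0.246 and 0.379 to 2.08, 1.75 and 2.03 and passed the filter only through clr2D. On the left arm of III, 13 neighbouring tested genes rose (chromosome III 28298 to 48882; log2 fold changes 0.206 to 1.22). They include the meiotic RNA meu3, from 1.41, 2.44 and 2.37 to 6.51, 5.51 and 6.203 (2.93-fold; adjusted p = 1.49e-04), and nic1, a nickel transporter gene named after its values were seen (log2 fold change 0.21 ± 0.03). On the right arm 11 neighbours rose (chromosome III 2414916 to 2436530), with SPCC569.02c and the overlapping RNA SPNCRNA.1298 at 3.47-fold and 3.69-fold and the RNA meu19 at 1.66-fold. The outer RNA SPNCRNA.1299 went from 2.85, 2.98 and 3.21 to 17.2, 17.1 and 16.4 (5.61-fold; log2 fold change 2.16 ± 0.05, adjusted p = 2.43e-09). The galactose cluster near the right end of II (gal7, tgd1, gal10 and gal1, with SPNCRNA.1697; chromosome II 4482234 to 4490271) rose as a run of 5, singled out after its values were seen. Its gal1 went from 11.5, 15.1 and 13.1 to 16.3, 21.7 and 17.1 (log2 fold change 0.44 ± 0.04, adjusted p = 4.02e-05).

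**Figure D3:**
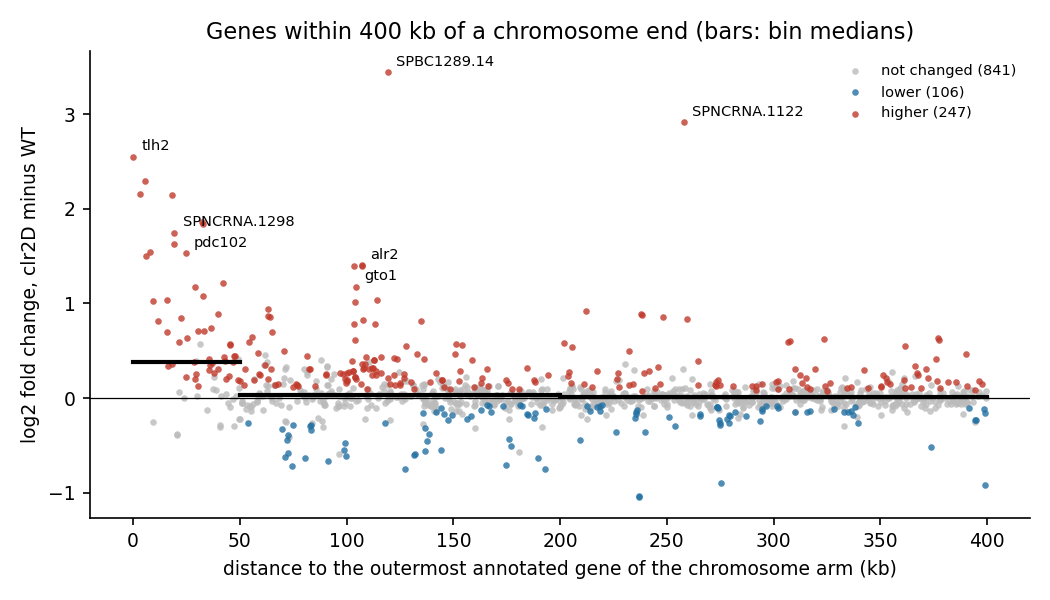
Log2 fold change of clr2D against wild type (vertical axis) for the tested genes within 400 kb of a chromosome end, by distance to the outermost row of the table on that arm (horizontal axis, kb); bars are medians of the distance bins. In the first 50 kb 48 of 72 genes are higher and 0 lower with a median of 0.38, whereas from 200 to 400 kb 87 of 637 are higher and 56 lower with a median of 0.0084. The 72 include 6 genes, the labelled tlh2 among them, that passed the filter only through clr2D. Without these 6, 42 of 66 are higher with a median of 0.35.

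Farther in, near 100 kb from the ends, further runs rose; their members were chosen after their values were seen, apart from SPBC1289.14 and Tf2-11. SPBC1289.14 opens a run of 7 (chromosome II 4412072 to 4431679) with the retrotransposon Tf2-11, the only one of 13 Tf2 rows that passed the filter. Tf2-11 went from 3.72, 5.92 and 4.24 to 9.06, 11.7 and 10.5 (2.25-fold; log2 fold change 1.03 ± 0.07, adjusted p = 8.32e-06); reads of its near-identical copies may be split between rows. On the left arm of II, the alanine racemase gene alr2 went from 13.4, 21.4 and 13.6 to 33.7, 67.7 and 35.8 (2.84-fold; adjusted p = 7.16e-07), with the overlapping RNA SPNCRNA.1309 (2.804-fold), in a run of 7. Replicate 2 was the highest of its group in both genotypes. On the right arm of I, gto1, annotated as an alpha-glucosidase, went from 22.2, 9.56 and 14.01 to 34.6, 31.4 and 35.8 (2.23-fold; adjusted p = 0.00378) in a run of 5 rows; it overlaps mmf2, SPNCRNA.1087 and SPNCRNA.276, which are in the run. Along the chromosomes, 16 runs of 5 or more neighbouring tested genes changed in 1 direction, 13 of them higher and 3 lower. Over all genes tested 11.7% rose and 9.29% fell, and no expected number of runs was worked out. Rows in a run can overlap and carry the same reads. Some members, such as SPAC186.08c and SPNCRNA.869, passed the filter only through clr2D.

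At the centromeres, 7 of 64 rows in intervals around the 3 centromeres were tested, and 5 of these 7 passed the filter only through clr2D, so that their count carries no weight. Their levels are given as a description. The pericentromeric RNA SPNCRNA.234 (chromosome I 3786105 to 3787136) went from 0.309, 0.258 and 0.326 to 3.66, 3.51 and 2.997 (11.4-fold), and SPNCRNA.232 on the other side of centromere 1 from 0.147 ± 0.0987 to 1.91 ± 0.160. At centromere 2, SPNCRNA.373 went from 0.607, 0.264 and 0.478 to 3.18, 2.46 and 3.02 (6.43-fold) and SPNCRNA.359 from 0.547 ± 0.0772 to 2.48 ± 0.309. The fifth, SPNCRNA.231, went from 0.107 ± 0.0221 to 1.195 ± 0.133. For these 5 RNAs the way they passed the filter already fixed that every clr2D library lay above every wild-type library. Reads of repeat copies may be split between rows. The other 2 tested rows were the permease gene per1, which fell, and a transfer RNA gene that did not pass. A 50-kb window at the left side of centromere 3 (chromosome III 1050 to 1100 kb) was picked after its values were seen. In it 8 of 12 tested genes fell, against 9.29% of all genes, and 0 rose. The median log2 fold change of this window was -0.36. Between rpp202 and SPNCRNA.1489 in the mating-type region, none of the 5 rows from SPNCRNA.389 to SPNCRNA.391 passed the filter.

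Among falls, the steepest formed a run of 6 rows on chromosome II (4126318 to 4133635). The non-coding RNA SPNCRNA.1672 went from 8.28, 8.995 and 8.72 to 1.78, 1.69 and 1.597 (5.13-fold lower; log2 fold change -1.85 ± 0.10, adjusted p = 1.70e-06). SPNCRNA.113, SPNCRNA.1673 and SPNCRNA.1674 fell 2.91-fold, 2.43-fold and 2.58-fold. SPNCRNA.1673 and SPNCRNA.1674 overlap abp2, which encodes a protein binding replication origins and went from 11.8, 11.05 and 10.9 to 5.74, 4.87 and 5.85 (log2 fold change -0.92 ± 0.05, adjusted p = 1.62e-06). SPNCRNA.1672 overlaps cnp3, the CENP-C gene of the kinetochore, named after its values were seen, which fell from 23.00 ± 0.511 to 14.7 ± 0.373 (adjusted p = 8.17e-07). Overlapping rows may carry the same reads. A further run of 6 non-coding RNAs fell on chromosome I (1952384 to 1957899), with SPNCRNA.781 from 9.52, 9.497 and 10.6 to 5.71, 3.03 and 4.37 (2.26-fold lower; adjusted p = 1.57e-04) and SPNCRNA.779 and SPNCRNA.780, which overlap each other, 2.103-fold and 2.096-fold lower. The overlapping pair SPAC806.11 and prl3 on chromosome I fell 2.05-fold and 2.06-fold.

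Strongly expressed metabolic genes were among the falls. The glutamate dehydrogenase gene gdh2 (chromosome III 1332569 to 1336197) went from 211, 254 and 232 to 87.9, 81.2 and 101 (2.58-fold lower; log2 fold change -1.36 ± 0.09, adjusted p = 6.43e-06). The malic enzyme gene mae2 went from 715, 1027 and 931 to 398, 493 and 540.2 (1.87-fold lower; log2 fold change -0.90 ± 0.07, adjusted p = 1.41e-05). No library of either group overlapped with the other for these genes. The peroxisomal import receptor gene pex7 went from 229.6, 235 and 220.3 to 108, 111 and 106 (log2 fold change -1.07 ± 0.03, adjusted p = 1.65e-08), and cbm1, a gene with a cellulose-binding domain, from 138, 161 and 121 to 46.8, 73.3 and 45.6 (2.53-fold lower; adjusted p = 1.87e-05). Of 18 listed nitrogen and amino acid genes 6 fell (33.3%, against 9.29% of all genes) and 0 rose (5 and 0 without the replicate block; 7 and 2 at an unadjusted p under 0.05 in limma), with a median log2 fold change of -0.049 against -0.0011 over all genes. Beside gdh2 and mae2 these were the amino acid permease gene per1 (27.4, 25.8 and 21.1 against 12.9, 14.9 and 11.96; adjusted p = 1.23e-05), the overlapping pair lys1, of lysine synthesis, and prm1, of cell fusion (1.35-fold lower each; adjusted p = 0.00551 and 0.0045), and isp7 (log2 fold change -0.42 ± 0.08). The genes per1, lys1 and prm1 lie close together near the centromere of chromosome I, and lys1 and prm1 may carry the same reads. The 6 falls are therefore not 6 separate observations. On chromosome III, the checkpoint kinase gene chk1, chosen after its values were seen, fell from 15.7 ± 0.571 to 8.73 ± 0.293 (adjusted p = 1.17e-07), and meu27, whose row overlaps it, fell 1.796-fold. A window of this chromosome with many falls is given above, with the centromeres.

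Several mating genes fell. In h- cells the M-factor pheromone genes are active, and starvation raises the HMG-box factor Ste11, which drives mating genes through a T-rich element, the TR box. As a check of the labelled mating type, mat1-Mc, which defines M cells, was listed at 0, 0 and 0 in wild type and 0.0305, 0 and 0 in clr2D, the M-cell receptor gene mam2 at 20.1 and 19.96, and the P-cell genes map2 and map3 at 35.5 and 21.8 in wild type, so that these rows did not separate M from P cells. Windows before the annotated starts of ste11 itself and of rgs1 are printed because both genes fell and each window holds the 9-letter core TTCTTTGTT, in capitals. They are the 300 bases before each gene's start in the RefSeq annotation of ASM294v3, at chromosome I 679503 to 679802 (plus strand) for rgs1 and II 3983076 to 3983375 (plus) for ste11. The rgs1 window also overlaps SPNCRNA.675. By these coordinates it begins inside the deposited rgs1 row, which starts 679.06 kb from the outermost row. The marked letters of rgs1 therefore cannot be placed upstream of the row that was counted.
rgs1: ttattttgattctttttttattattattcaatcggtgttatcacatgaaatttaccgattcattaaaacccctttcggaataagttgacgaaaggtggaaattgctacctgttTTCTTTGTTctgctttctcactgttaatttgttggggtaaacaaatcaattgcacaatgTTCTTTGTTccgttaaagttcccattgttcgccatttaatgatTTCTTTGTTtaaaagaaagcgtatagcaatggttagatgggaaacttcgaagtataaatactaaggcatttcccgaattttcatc
ste11: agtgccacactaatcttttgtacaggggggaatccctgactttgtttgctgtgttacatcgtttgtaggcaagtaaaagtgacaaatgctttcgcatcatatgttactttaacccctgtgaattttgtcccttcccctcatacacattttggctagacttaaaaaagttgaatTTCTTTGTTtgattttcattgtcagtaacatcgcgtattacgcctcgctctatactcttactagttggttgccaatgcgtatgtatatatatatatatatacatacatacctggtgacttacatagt

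The core, searched on both strands, is present 3 times in the rgs1 window and 1 time in that of ste11. It was present in 97 of 5016 windows of protein-coding genes (1.93%), in 12 of the 511 that rose (2.35%) and 14 of the 458 that fell (3.06%). Among the listed mating genes of the M-cell and shared groups, 5 of 9 that fell and 7 of 16 that did not pass had it. The window of mfm2 had none, and no window printed here held both motifs.

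The M-factor precursor gene mfm2 fell from 98.7, 105 and 94.6 to 59.3, 40.9 and 52.6, with no overlap of the groups (1.95-fold lower; log2 fold change -0.97 ± 0.11, adjusted p = 2.90e-04). The other M-factor genes did not: mfm1 was 6.74 against 7.32 and mfm3 19.6 against 21.2 (wild type first; adjusted p = 0.66 and 0.734). Of 8 M-cell genes 3 fell (37.5%, against 9.29% of all genes) and 0 rose (1 and 0 without the replicate block; 3 and 1 at an unadjusted p under 0.05 in limma). The others that fell were mam4, which methylates the pheromone (log2 fold change -0.23 ± 0.04), and mam1, its exporter (-0.16 ± 0.04). Of 5 P-cell genes sxa1 rose (1 of 5, against 11.7% of all genes; 0.08 ± 0.02, adjusted p = 0.0442, and 0.303 without the block), a call also lost with the robust variance and in 5 of the 6 fits that left out 1 library. Of 17 tested mating genes shared by both cell types 6 fell (35.3%, against 9.29%) and 0 rose, with a median log2 fold change of -0.13 (9 and 0 at an unadjusted p under 0.05 in limma); without the replicate block 2 fell, and without clr2D replicate 1 the count was 3. In this group ste11 was 40.8, 20.98 and 25.2 in wild type and 21.3, 15.8 and 19.6 in clr2D, so that the groups overlapped and only the comparison within pairs called it (adjusted p = 0.0114, and 0.22 without the block). The adaptor gene ste4 of the pheromone kinase cascade went from 13.5, 12.3 and 12.2 to 9.497, 7.52 and 8.98 without overlap (log2 fold change -0.50 ± 0.06, adjusted p = 5.09e-04), and rgs1, a regulator of G-protein signalling, from 5.53, 5.29 and 4.62 to 4.01, 3.77 and 3.899 (-0.33 ± 0.05, adjusted p = 0.0028). The G-protein subunit gene gpa1 (-0.22 ± 0.04; adjusted p = 0.212 without the block), the kinase gene spk1 (-0.20 ± 0.04) and the kinase gene byr2 (-0.19 ± 0.04) fell by less. The spk1 row lies in the longest run of falls, 8 neighbouring tested rows from hem4 to SPNCRNA.74 (chromosome I 2998749 to 3004335). Log2 fold changes in this run were -0.585 to -0.155, with a median of -0.432.

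Of 26 tested hexose transport and sugar genes 6 rose and 6 fell (23.1% each, against 11.7% and 9.29% of all genes) and 14 did not pass; without the replicate block 3 rose and 1 fell. The glycerol dehydrogenase gene gld1 went from 6.796, 4.49 and 6.24 to 11.7, 12.2 and 13.8 (2.15-fold; adjusted p = 0.0015). The high-affinity hexose transporter gene ght5 was 135, 71.9 and 71.7 against 182, 205 and 129, with overlap between the groups (log2 fold change 0.92 ± 0.19, adjusted p = 0.00905, and 0.0759 without the block), and ght1 rose 1.57-fold (adjusted p = 0.014, and 0.102). The glyceraldehyde phosphate dehydrogenase gene gpd3 was 278, 302 and 378 against 220.2, 146 and 222 (log2 fold change -0.71 ± 0.13, adjusted p = 0.00493, and 0.0503 without the block). The transporter gene ght8 and the hexokinase gene hxk2 fell to log2 fold changes of -0.36 ± 0.06 and -0.30 ± 0.04, and the aldolase gene fba1, the most strongly expressed of the genes that fell, was 6954 against 6288 (adjusted p = 0.0229, and 0.386). Of 15 iron and heme uptake genes 4 rose (26.7%, against 11.7%) and 1 fell (6.67%, against 9.29%); without the block 1 rose and 0 fell. The ferric reductase gene frp2 was 4.89, 4.32 and 8.93 against 8.77, 11.97 and 10.9 (log2 fold change 0.76 ± 0.17, adjusted p = 0.0122, and 0.0551 without clr2D replicate 2), and the iron-sensing repressor gene fep1 fell (-0.17 ± 0.04). The iron count was between 1 and 5 rises and between 0 and 1 falls when 1 library was left out.

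Of 26 core stress genes 5 rose (19.2%, against 11.7% of all genes) and 3 fell (11.5%, against 9.29%); without the block 3 rose and 0 fell, and without wild-type replicate 3 there were 8 rises and 1 fall. Sulfiredoxin srx1 went from 46.3, 47.2 and 60.7 to 62.6, 68.2 and 74.3 (log2 fold change 0.41 ± 0.06, adjusted p = 9.77e-04), the small heat-shock gene hsp16 from 33.1, 30.7 and 31.3 to 46.6, 38.5 and 37.03 (0.34 ± 0.05, adjusted p = 8.35e-04), and the peroxiredoxin gene tpx1 from 1351 ± 73.8 to 1625 ± 95.6 (0.27 ± 0.03, adjusted p = 1.12e-04). Each of these 3 rose by less than 1.5-fold. Thioredoxin trx1 was 931 against 817 (adjusted p = 0.0292, and 0.303 without the block). Of 32 heterochromatin and RNAi factors 3 rose (9.38%) and 2 fell (6.25%); without the replicate block 1 rose and 0 fell. The rise that kept its call in every alternative tried was that of rik1, of the histone H3 methyltransferase complex, from 18.9, 19.2 and 18.9 to 22.3, 21.8 and 21.7 (log2 fold change 0.20 ± 0.03, adjusted p = 0.00254). The RNA-dependent RNA polymerase gene rdp1 (0.13 ± 0.03) and the CENP-B homologue gene cbh2 (0.11 ± 0.03) rose, and the anti-silencing gene epe1 (-0.13 ± 0.03) and the nuclear membrane gene lem2 (-0.09 ± 0.02) fell.

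Of 36 tested genes of the mitochondrial genome 16 rose (44.4%, against 11.7% over all genes), 20 did not pass and 0 fell (22 and 0 at an unadjusted p under 0.05 in limma), with a median log2 fold change of 0.2. The count rested on the block and on single libraries: 3 rose without the block, 0 in the unblocked fit of these 6 libraries alone, 6 without wild-type replicate 3 and 6 without clr2D replicate 2. The cytochrome oxidase subunit gene SPMIT.01 (cox1) went from 3003, 3059 and 2998 to 3438, 3541 and 3704 (log2 fold change 0.24 ± 0.04, adjusted p = 0.00199) and SPMIT.05 (cob1) from 2549, 2605 and 2631 to 2875, 2764 and 3084 (0.16 ± 0.04, adjusted p = 0.0233, and 0.205 without the block). Both were also higher in the means of clr1D (3574 and 2942) and clr3D (3667 and 2853). Of 64 small nucleolar RNAs 23 fell (35.9%, against 9.29% over all genes), 41 did not pass and 0 rose (median log2 fold change -0.19; 33 lower and 0 higher at an unadjusted p under 0.05 in limma). Without the block 11 fell, and without wild-type replicate 3, clr2D replicate 2 or clr2D replicate 3 11, 10 and 11 did. The small nucleolar RNA sno12 was 1600.3, 1492 and 1761 against 1332, 1207 and 1108 (adjusted p = 0.0148, and 0.0596 without the block).

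The remaining lists are set against the 11.7% of all genes that rose and the 9.29% that fell. Of 1436 tested non-coding RNAs 243 rose (16.9%) and 136 fell (9.47%; quantile normalization gave 187 and 174). The 243 include non-coding RNAs that passed the filter only through clr2D. With at least 1 FPKM required in all 6 libraries, 225 rose and 135 fell. Of 113 tested mug and meu genes, named for raised expression in meiosis, 20 rose (17.7%) and 9 fell (7.96%). Of 23 tested wtf genes, a family of meiotic drivers with similar copies, 5 rose and 0 fell, but 1 rose without the block, 1 with quantile normalization and 2 without wild-type replicate 3; wtf20 went from 2.699, 1.898 and 2.43 to 4.15, 3.08 and 3.41 (adjusted p = 0.00275). Of 141 cytosolic ribosomal protein genes 1 rose and 5 fell, among the falls rps2202 (-0.26 ± 0.04), rps2601 (-0.17 ± 0.04) and rpl1002 (-0.15 ± 0.03). Of 5 uracil-regulated genes fur4, the uracil permease gene, and urk1, a uridine kinase gene, fell (-0.19 ± 0.03 and -0.18 ± 0.04), and neither did without the block. Of 10 core histone genes 0 changed in limma (1 higher and 1 lower at an unadjusted p under 0.05, 0 by voom), and of 6 phosphate genes 0 changed (1 higher and 3 lower unadjusted, 1 by voom). Of 5 tested auxotrophic marker genes his7 and arg3 rose (arg3 log2 fold change 0.20 ± 0.06, adjusted p = 0.0475, and 0.174 without the block). The labels give arg3-D4 for wild type and arg3D for clr2D, and which part of arg3 each allele lacks is not given. The arg3 value therefore cannot be read as the level of an intact gene.

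**Figure D4:**
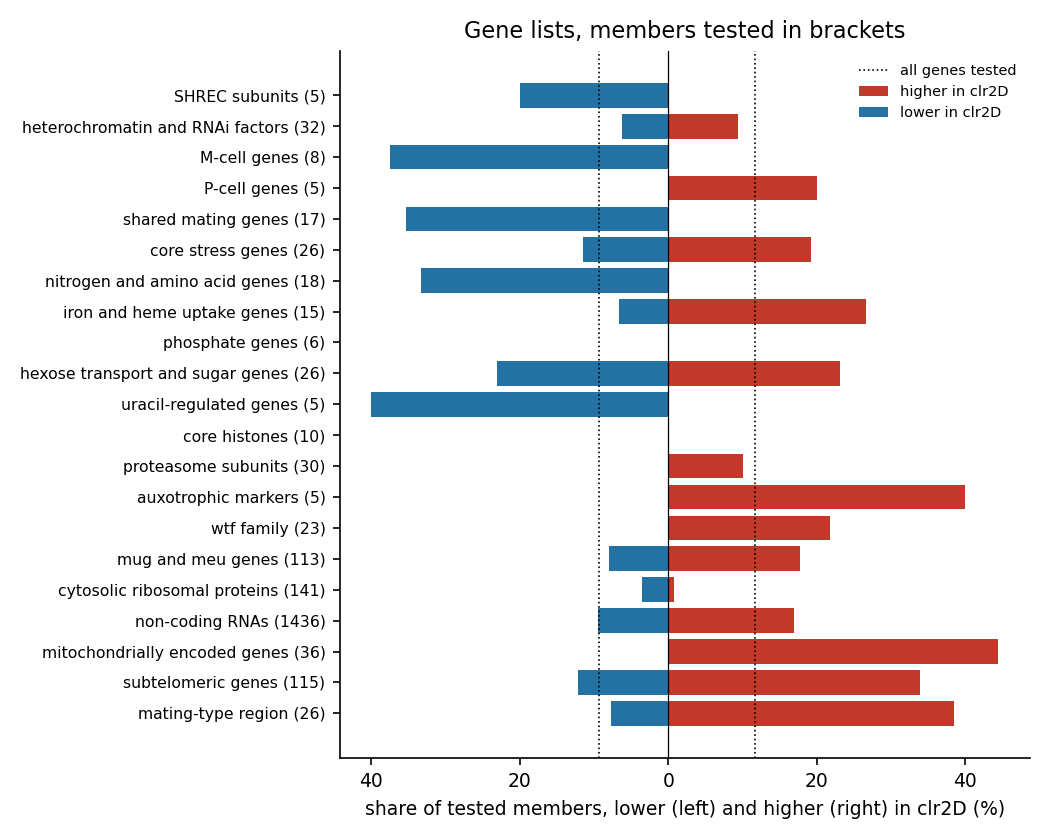
Share of tested members of each gene list that was higher (right) or lower (left) in clr2D, in percent, with the number of members tested in brackets; dotted lines are the shares over all 6649 genes (11.7% higher, 9.29% lower). Several lists reach past a line. Among those past the right line are mitochondrially encoded genes (16 of 36 higher, 3 without the replicate block) and the subtelomeric genes of I and II (39 of 115 higher). The subtelomeric rises include genes that passed the filter only through clr2D, and this list also passes the left line (14 lower). Others past the left line include nitrogen and amino acid genes (6 of 18) and shared mating genes (6 of 17).

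A pair of segments of chromosome II was higher in clr2D than in wild type and than in clr1D. The first is his7 with its neighbours (2037987 to 2044042). The copper-transporting ATPase gene ccc2 went from 42.8, 42.4 and 49.3 to 69.8, 72.97 and 79.6 (log2 fold change 0.71 ± 0.04, adjusted p = 3.01e-06), and gid2, of the GID ubiquitin ligase, from 22.6, 21.1 and 21.6 to 29.4, 28.6 and 29.1 (0.40 ± 0.03, adjusted p = 1.63e-05). All 3 genes differed from clr1D and from clr3D, with differences from clr1D of 1.20 ± 0.02 for his7, 0.65 ± 0.04 for ccc2 and 0.40 ± 0.03 for gid2 (adjusted p = 1.67e-09, 1.85e-05 and 6.48e-05). Reads from the his7+ marker at clr2 and reads from this locus cannot be told apart. Over the next 42 tested genes 5 rose and 6 fell, against 11.7% and 9.29% of all genes. Their log2 fold changes lay between -0.183 and 0.33, and none differed from clr1D.

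The second segment, in the mating-type region (SPNCRNA.388 to rpp202, 2115592 to 2128518), is 10 rows long. In it 9 rose, by 1.07-fold to 1.55-fold over all 10, and the tenth, snR92, did not pass (log2 fold change 0.10 ± 0.06). All 10 differed from clr1D and 9 differed from clr3D. The proteasome ATPase gene rpt6 went from 107, 111 and 111 to 159.5, 181 and 169 (log2 fold change 0.62 ± 0.03, adjusted p = 6.20e-07), against 114 ± 4.85 in clr1D. SPBC23G7.10c, annotated as a flavin oxidoreductase, went from 13.6, 15.8 and 13.03 to 18.6, 22.95 and 19.3 (adjusted p = 2.69e-05), and the ribosomal stalk protein gene rpp202 from 1823, 1598 and 1906 to 2438, 2450.3 and 2542 (log2 fold change 0.48 ± 0.08, adjusted p = 0.00189). The DNA glycosylase gene mag2, chosen after its values were seen, went from 11.1, 11.95 and 10.9 to 14.8, 14.2 and 14.5 (adjusted p = 4.90e-04). The groups did not overlap for these 4 genes. Several rows overlap (SPBC23G7.14 with rpp202, SPBC23G7.13c with SPNCRNA.1488, mag2 with SPNCRNA.1487). The list of 26 tested genes of the whole mating-type interval had 10 rises (38.5%, against 11.7% of all genes) and 2 falls (7.69%, against 9.29%). Of these 10 rises 9 are those of the segment. Of the other proteasome genes, 2 of 29 rose (against 11.7% of all genes), pre1 (0.13 ± 0.03) and pre8 (0.09 ± 0.03), and neither did without the block. In the 50 kb from SPNCRNA.1489 on, 0 of 32 tested genes rose and 2 fell, and none differed from clr1D.

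**Figure D5:**
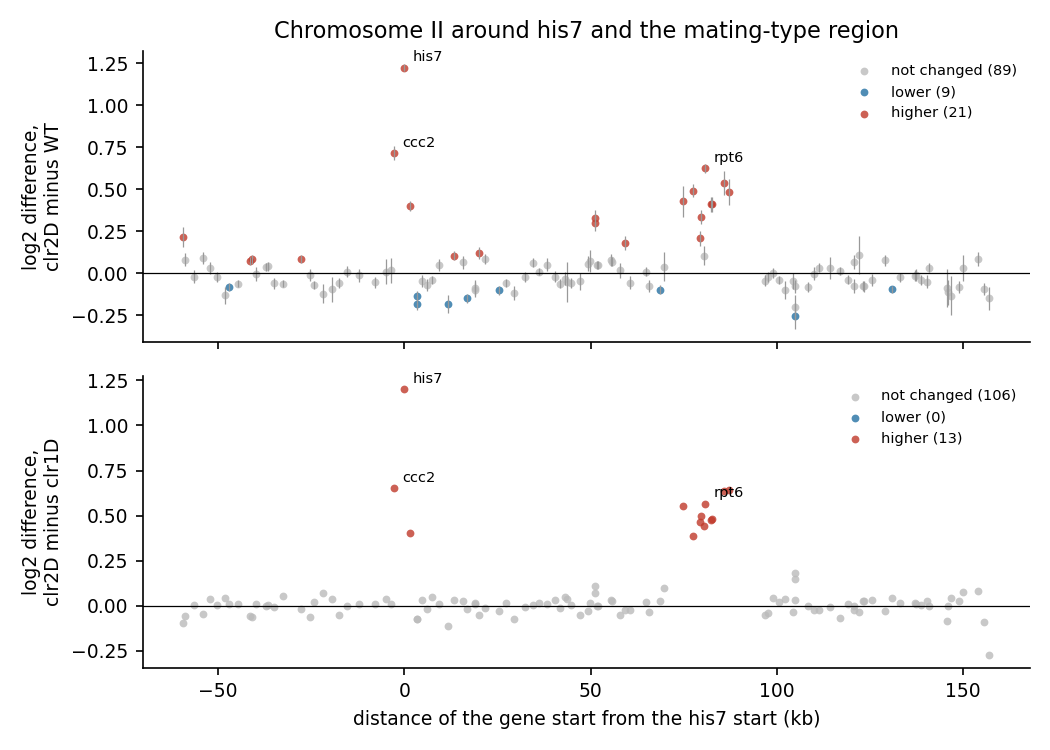
Log2 difference of clr2D from wild type (top, with SE) and from clr1D (bottom) for tested genes along chromosome II, by distance of the gene start from the his7 start (horizontal axis, kb). Separate groups of points lie above 0 in both panels, his7 with ccc2 and gid2 at 0 kb and the 10 rows around rpt6 near 80 kb, while the genes between them lie near 0 in the bottom panel.

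Against clr1D, 35 of the 6649 genes differed (0.526%), 28 higher and 7 lower in clr2D, and 11 by 2-fold or more. This test asks whether losing either of these partner subunits gives different levels. Beside the 13 genes of both segments above, 14 of the 35 lay at 3 places. The first is cao1, a copper amine oxidase gene, with cbm1 and 5 non-coding RNAs around them (chromosome I 2931622 on). The cao1 level was 74.1, 80.9 and 74.96 in wild type, 69.2, 74.5 and 68.6 in clr2D and 32.4 ± 1.53 in clr1D (clr2D minus clr1D 1.10 ± 0.02, adjusted p = 3.83e-09). For cbm1, which fell in clr2D, the level in clr1D was lower still at 25.4 ± 8.28 (difference 1.10 ± 0.10, adjusted p = 3.70e-04). The second lies near the centromere of chromosome I, where lys1 was 188 ± 7.16 in wild type, 139 ± 13.5 in clr2D and 31.8 ± 3.15 in clr1D (difference 2.09 ± 0.08, adjusted p = 4.08e-07), and prm1 followed it. Beside them per1 was 24.8 ± 3.26, 13.2 ± 1.52 and 5.68 ± 0.851 (difference 1.09 ± 0.06, adjusted p = 5.25e-06). The clr2D level of these 3 genes lay between those of clr1D and wild type. The third is clr1 with its neighbours, of which pth1, mhf1 and SPNCRNA.1569 were lower in clr2D than in the clr1D strain. Near the right end of II, SPBCPT2R1.07c was lower in clr2D (2.09 ± 0.217) than in clr1D (4.47 ± 0.296; difference -0.83 ± 0.08, adjusted p = 5.63e-04). The kinase gene chk1 was also lower in clr2D than in clr1D (8.73 ± 0.293 against 10.97 ± 0.283; adjusted p = 5.19e-04). The clr1D and clr2D libraries share the wild-type controls, and no overlap of their calls is given.

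Against clr3D, 2761 genes differed (41.5%), 1380 higher and 1381 lower in clr2D, but only 14 by 2-fold or more on the log2 scale. Without the replicate block 1708 differed, and with FPKM as deposited the split was 1658 higher and 1069 lower. Beside clr3 and the RNA SPNCRNA.1331 that overlaps it, the largest differences were those of genes that were not higher in clr2D than in wild type. The non-coding RNA omt3 was 23.5, 14.95 and 17.2 in wild type, 13.1, 8.46 and 9.800 in clr2D and 35.3 ± 13.1 in clr3D (clr2D minus clr3D -1.62 ± 0.11, adjusted p = 1.93e-05). The amino acid permease gene nrg1 was 3.18 against 12.1 (-1.60 ± 0.15, adjusted p = 8.27e-05), and the uracil-responsive gene urg1 29.7 against 77.9 (-1.35 ± 0.20, adjusted p = 8.12e-04); wild type was 3.37, 7.05 and 3.88 for nrg1 and 55.9, 30.8 and 17.7 for urg1, and neither changed between clr2D and wild type. The pseudogene SPBPB10D8.03 near the left end of II was 3.97 ± 1.399 in clr2D (wild type 3.77) and was 0.652 ± 0.365 in clr3D (difference 1.58 ± 0.09, adjusted p = 5.04e-06). At the ends tlh2 was lower in clr2D than in clr3D, at 5.87 ± 0.104 against 10.96 ± 1.62 (difference -0.79 ± 0.07, adjusted p = 6.72e-05), as was SPAC212.06c (-0.57 ± 0.08, adjusted p = 7.04e-04). SPNCRNA.1298 was higher in clr2D (0.34 ± 0.04, adjusted p = 1.60e-04). For gdh2, mfm2 and per1 clr2D lay lower than clr3D, with differences of -0.68, -0.79 and -1.18 (adjusted p = 3.99e-04, 5.43e-04 and 2.51e-06). For wtf20 the clr2D level (3.55 ± 0.545) stood above that of clr3D (1.43 ± 0.0929; difference 0.90 ± 0.07, adjusted p = 3.92e-05), whose level was below wild type. For hsp16 it stood below (-0.72 ± 0.05, adjusted p = 9.82e-06).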

How the data were processed

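Total RNA of wild type, clr2D, clr1D and clr3D cultures was compared in 12 libraries, 3 per genotype, from a table of 18. The authors' deposited values are FPKM per gene; per the submitters' processing notes, GSNAP (2013-02-25) and the ASM294v2 genome were used. For the counting program and its strand setting, no source used here gives a name. Another 3 columns of the table matched no sample and were not used. Gene names came from RefSeq (ASM294v3), in which 6843 of 7018 IDs matched, 4409 of them with a symbol, and promoters were read from that build.

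Whole reads were recovered from FPKM and length: 100% of the values checked came out within 0.1 read of a whole number, and voom, run on these reads as an alternative, called 1562 genes. FPKM were scaled by the median ratio over 6518 genes with at least 1 FPKM in all 12 libraries. Genes with at least 1 FPKM in 3 of the 6 clr2D and wild-type libraries were tested with limma 3.58.1 (R 4.3.3) on log2(scaled FPKM + 1), a scale that understates changes of weakly expressed genes, with genotype and library prefix as terms and Benjamini-Hochberg adjustment over 6649 genes. Every adjusted p in the text is from this test unless another setting is named. The prefix is part of the library names: deviations from the genotype means correlated with r from 0.254 to 0.723 in 18 pairs of libraries with the same prefix (0.254 to 0.527 for clr2D with wild type) and from -0.454 to 0.135 in 36 other pairs. The script for the test was checked on simulated data with the same prefix effects in every genotype. That check therefore does not bear on whether the block should be used. Alternatives changed the scaling, the added constant, the filter, the block, the libraries fitted, the variance model and single libraries.

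Named genes are the SHREC genes, his7 and the neighbours of clr2 and his7, the 15 largest rises and 15 largest falls without overlap of the groups, up to 4 changed genes of each list, the 6 largest differences from each other deletion and the 5 most expressed rises and falls. Other genes in the text, such as neighbours in a run, further list members and unchanged markers, were chosen after their values were seen. The comparison and the lists were chosen with earlier results of these data known. Python 3.11.15, pandas 2.3.3, NumPy 2.4.6 and matplotlib 3.10.9 were used for counts and plots.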

Additional observations from a re-analysis of the deposited data

How the results depend on the processing

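Of 1398 changed genes (780 higher, 618 lower), 552 were changed without the replicate block (340 and 212), all of them among the 1398. Fits of these 6 libraries alone gave 679 (395 and 284) with the block and 323 (195 and 128) without it, and all 18 libraries without the block gave 818 (485 and 333). Leaving out 1 library gave 849 to 1077 changed genes, 482 to 612 higher and 367 to 489 lower, of which 54.6% to 59.8% were higher. FPKM as deposited moved the share of rises from 55.8% to 68.6%. Quantile normalization, other added constants, other filters, voom and the robust variance each moved the count of changed genes by less than 1.5 times. Against clr3D, 1708 genes differed without the block (870 and 838), and against clr1D 31 did (25 and 6). The cause of these shifts was not tested.

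Of 108 genes named by rule 99 changed; 50 of these kept the call in all 18 alternatives, 49 lost it in at least 1, and 0 reversed. Without the block 36 lost it. Depth limits the weakly expressed rows: SPAC212.10 had 8 wild-type reads in all, so that its fold change depends on the added constant.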
